A study of Mus musculus with 4 samples.

Results

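RNA of 7 genes, called packaging genes here, was followed in mouse spermatozoa. They are the protamine genes Prm1, Prm2 and Prm3, the transition protein genes Tnp1 and Tnp2, and the linker histone genes H1fnt (now named H1f7 in RefSeq) and Hils1. All but Prm3, whose product is found in the cytoplasm, encode proteins that pack DNA, and the 7 are grouped by name. The 7 genes were picked by symbol after the Ensembl identifiers of the deposited tables had been matched to mouse gene symbols, and all 7 were among the 8699 genes listed. The spermatozoa were squeezed out of the nicked cauda epididymidis, the part of the duct that stores sperm, of adult C57BL/6J males about 11 weeks old. Mice given nicotine (2 libraries) were set against mice given saline (2 libraries), and no genetic change is named for either group. RNA was extracted with Trizol and made into libraries with a TruSeq kit that the labels name as one for DNA. Dose, route and length of treatment are not given in the sources used here. Neither the number of animals behind a library nor a step to clear other cells is described, so a p-value here measures the spread between these libraries, which may be technical.

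In round and elongating spermatids most histones leave the DNA, transition proteins take their place for a short time, and protamines then replace them. Protamines are small, arginine-rich proteins, and rodent sperm hold PRM1 and also PRM2, which is cut from a longer precursor. H1fnt and Hils1 encode linker histones made in spermatids. Most of these messages are transcribed in round spermatids, stored with RNA-binding proteins and translated later, after transcription has ceased, so what is read in cauda sperm is RNA left from the testis. In a bulk RNA sample, fewer cells of a type and less RNA per cell cannot be told apart.

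The libraries held 3798794 and 5216745 reads in nicotine replicates 1 and 2, and 3999449 and 3856022 reads in saline replicates 1 and 2. Most of these fell on Lars2, the gene of a mitochondrial tRNA synthetase, and on the noncoding RNA gene Gm42418. The pair held 90.6% and 77.5% of reads in the nicotine libraries and 74.9% and 75.8% in the saline libraries, which left 358477 reads for other genes in nicotine replicate 1 and between 931578 and 1176304 in the other libraries. Nicotine replicate 1 thus stands apart, and every scale that divides by all reads lowers its other genes. Defining markers of the labelled cell type, mostly sperm tail and energy genes and called the sperm list here, were read at unequal levels. Odf1 (5015 and 11591 reads in nicotine, 3006 and 2878 in saline libraries) and Smcp were high. Tekt1 (7 and 64 against 13 and 14), Tekt4 (3 and 47 against 12 and 21) and Akap3 (15 and 97 against 27 and 22) were low. The median gene had 8 and 37 reads in nicotine and 44 and 40 in saline libraries. Of 16 such markers 15 were listed, and they summed to 4.81 to 5.50% of the reads outside the pair in nicotine libraries and 1.51 to 1.64% in saline libraries. Markers of other cells were read too. Of 10 leukocyte markers 9 were listed, at 0.0248 to 0.0310% in nicotine and 0.106 to 0.118% in saline libraries, with Cd14 and Cd68 at 0 in nicotine replicate 1. Of 10 connective tissue and vessel markers 8 were listed, at 0.153 to 0.613% in nicotine and 1.20 to 2.47% in saline libraries, with Lum at 0 in nicotine replicate 1 and in saline replicate 2. Of 15 epididymal epithelium markers 5 were listed (0.476 to 1.78% against 0.623 to 2.12%), and all 5 erythroid markers were (0.0332 to 0.199% against 0.112 to 0.192%). Of 10 markers of earlier germ cells 4 were listed, at 0.0876 to 0.0982% in nicotine and 0.0243 to 0.0274% in saline libraries. Most of these reads were of Syce2 alone (322 and 868 in nicotine, 234 and 189 in saline libraries). The shares of sperm, earlier germ cell, leukocyte and connective tissue markers did not overlap between the groups. On this scale 16.8% of the 8375 genes tested below had both nicotine libraries above both saline libraries, and 54.7% had both below. The part of these markers in the results on the 7 genes was not tested.

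In the GENCODE M21 annotation of GRCm38, 4 of the 7 genes lie side by side on the minus strand of chromosome 16, Tnp2 (10787936 to 10788660), Prm3 (10790505 to 10790914), Prm2 (10791380 to 10796134) and Prm1 (10796326 to 10805839). Tnp1 lies on chromosome 1 (73015074 to 73015909, minus strand), H1fnt on chromosome 15 (98255986 to 98257293, minus strand) and Hils1 on chromosome 11 (94967593 to 94968456, plus strand). GRCm38 is a later build than mm8, the build in the submitters' processing notes, so these positions place the genes and were not used on the reads. The bases before the RefSeq start sites of the protamine and transition protein genes are shown because these genes are read as a group in the comparisons that follow, and because promoters of spermatid genes are known to hold sites for CREM, a transcription factor of round spermatids that binds the cAMP response element. Capitals mark the letters TGANGTCA (the 8-base element TGACGTCA with 1 base left free) and the TATA letters TATAAA or TATATA, searched on both strands. Each sequence holds the 250 bases before the start, 5′ to 3′ on the gene's strand, from the RefSeq promoter table of GRCm38.p6: Prm1 chr16:10796824-10797073, Prm2 chr16:10792106-10792355, Prm3 chr16:10790915-10791164, Tnp1 chr1:73015900-73016149 and Tnp2 chr16:10788656-10788905, all minus strand.
Prm1: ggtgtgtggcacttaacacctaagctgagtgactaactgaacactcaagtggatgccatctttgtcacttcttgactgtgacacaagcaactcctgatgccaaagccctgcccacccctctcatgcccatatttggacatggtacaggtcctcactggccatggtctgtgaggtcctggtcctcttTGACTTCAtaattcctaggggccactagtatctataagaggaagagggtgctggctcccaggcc
Prm2: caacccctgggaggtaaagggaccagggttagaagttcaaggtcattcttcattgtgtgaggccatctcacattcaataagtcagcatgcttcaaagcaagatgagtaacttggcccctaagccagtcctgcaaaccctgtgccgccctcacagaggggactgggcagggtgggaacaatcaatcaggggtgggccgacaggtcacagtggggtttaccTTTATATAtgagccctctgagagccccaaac
Prm3: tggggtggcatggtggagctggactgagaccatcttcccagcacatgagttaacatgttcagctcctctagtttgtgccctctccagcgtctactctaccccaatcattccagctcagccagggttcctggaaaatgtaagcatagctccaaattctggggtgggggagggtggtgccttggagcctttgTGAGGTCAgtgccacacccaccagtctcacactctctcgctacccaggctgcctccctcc
Tnp1: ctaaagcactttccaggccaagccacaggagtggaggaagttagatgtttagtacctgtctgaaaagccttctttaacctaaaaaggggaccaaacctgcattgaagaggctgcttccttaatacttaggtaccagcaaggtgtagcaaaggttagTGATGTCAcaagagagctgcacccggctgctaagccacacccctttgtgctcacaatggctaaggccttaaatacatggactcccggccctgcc
Tnp2: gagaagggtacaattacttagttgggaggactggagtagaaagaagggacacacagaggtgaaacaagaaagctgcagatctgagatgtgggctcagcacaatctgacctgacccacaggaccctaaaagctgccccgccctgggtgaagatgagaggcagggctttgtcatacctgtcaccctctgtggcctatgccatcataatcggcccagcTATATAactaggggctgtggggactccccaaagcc
The letters TGANGTCA stood 64 to 57 bases before the start in Prm1 (TGACTTCA, a match read on the other strand), 60 to 53 bases before it in Prm3 (TGAGGTCA) and 94 to 87 bases before it in Tnp1 (TGATGTCA). In Prm2 the capitals are TATAAA read on the other strand (bases 31 to 26) overlapping TATATA (bases 29 to 24), and in Tnp2 they are TATATA (bases 35 to 30). None of these 3 motifs was found before H1fnt or Hils1, and the full TGACGTCA was in 0 of the 7 windows. Of 32851 promoters of the same length in that table, 7.49% held TGANGTCA, 1.55% TGACGTCA, 12.4% TATAAA and 5.25% TATATA. These matches describe letters, not binding.

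By RPKM the linker histone genes were the lowest of the 7 together with Tnp1. H1fnt, a single-exon gene, had 88 and 203 reads in the nicotine libraries and 80 and 78 reads in the saline libraries. Its deposited RPKM, reads per kilobase of gene per 1000000 reads of the library, was 17.5 and 29.3 in nicotine and 15.1 and 15.3 in saline. On this scale both nicotine libraries lay above both saline libraries, and H1fnt was the only one of the 7 genes for which that held. It held for 6.99% of all 8375 tested genes. Per 1000000 reads outside Lars2 and Gm42418 H1fnt had 245 and 173 reads in nicotine and 79.8 and 83.7 in saline, again without overlap. Among all 8699 genes ranked by RPKM inside a library, a measure that no scaling touches, it was number 228 and 362 in nicotine libraries and 641 and 647 in saline libraries.

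Hils1 had the fewest reads of the 7 genes in 3 of 4 libraries, with 17 and 67 in nicotine libraries and 31 and 7 in saline libraries. Its RPKM was 5.18 and 14.9 in nicotine and 8.97 and 2.10 in saline, so the groups overlapped. It ranked 622 and 640 in nicotine libraries but 1106 and 4687 in saline libraries. The 7 reads of saline replicate 2 were 0.000751% of its reads outside the pair, with an exact Clopper-Pearson 95% interval from 0.000302 to 0.00155%, so counting error alone was large there. In the annotation Hils1 lies inside Sgca, a gene of the other strand with which it shares no exon base.

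Of the transition protein genes, Tnp2 was the higher by RPKM in all 4 libraries. It had 363 and 1041 reads in nicotine libraries and 459 and 289 in saline libraries. Its RPKM was 174 and 363 in nicotine and 209 and 137 in saline, and nicotine replicate 1 lay between the saline libraries. Per 1000000 reads outside the pair it stood at 1013 and 885 in nicotine and 458 and 310 in saline, and there both nicotine libraries were above both saline libraries. It ranked 36 and 41 among all genes in nicotine libraries and 51 and 83 in saline libraries.

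Tnp1, the other transition protein gene, had 12 and 121 reads in nicotine libraries and 37 and 23 in saline libraries. Its RPKM was 7.23 and 53.1 in nicotine and 21.2 and 13.6 in saline, so nicotine replicate 1 was the lowest library and nicotine replicate 2 the highest. Per 1000000 reads outside the pair it had 33.5 and 103 reads in nicotine and 36.9 and 24.7 in saline, and it was the only one of the 7 genes whose groups overlapped on that scale. Its rank was 477 and 217 in nicotine libraries and 457 and 701 in saline libraries. The strand setting of the counting is not given, and Tnp1 shares 40 of its 437 exon bases with the antisense gene 1700027A15Rik, which had 126 and 589 reads in nicotine libraries and 185 and 152 in saline libraries. Reads of Tnp1 and of that gene may therefore be mixed, and values of Tnp1 are uncertain.

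By RPKM the protamine genes Prm2 and Prm1 were the highest of the 7 genes. Prm2 had 1788 and 10569 reads in nicotine libraries and 4180 and 2732 in saline libraries. Its RPKM was 526 and 2266 in nicotine and 1169 and 793 in saline, so the nicotine libraries were the lowest and the highest of the 4. It was among the 17 highest genes by RPKM in every library, at ranks 16 and 9 in nicotine and 11 and 17 in saline. The length used for Prm2 in the files is 894 bases, the union of all its annotated exons, whereas its longest annotated transcript has 674 bases, so its RPKM depends on that choice of length.

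Prm1 had 431 and 1185 reads in nicotine libraries and 691 and 356 in saline libraries. Its RPKM was 242 and 484 in nicotine and 368 and 197 in saline, and the groups overlapped. Per 1000000 reads outside the pair Prm1 stood at 1202 and 1007 in nicotine and 689 and 382 in saline, without overlap. Prm2, on the same scale, stood at 4988 and 8985 in nicotine and 4170 and 2933 in saline, also without overlap. By rank, Prm1 was number 28 and 29 in nicotine libraries and 31 and 56 in saline libraries.

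Prm3, which lies between Prm2 and Tnp2 and encodes an acidic protein found in the cytoplasm rather than on DNA, had 37 and 122 reads in nicotine libraries and 40 and 35 in saline libraries. Its RPKM was 23.8 and 57.0 in nicotine and 24.4 and 22.1 in saline. The overlap rests on nicotine replicate 1, which stood between the saline libraries. Per 1000000 reads outside the pair, Prm3 had 103 and 104 reads in nicotine and 39.9 and 37.6 in saline, and its nicotine libraries lay closer together than those of any other of the 7 genes. It ranked 183 and 204 in nicotine libraries and 396 and 457 in saline libraries.

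**Figure D1:**
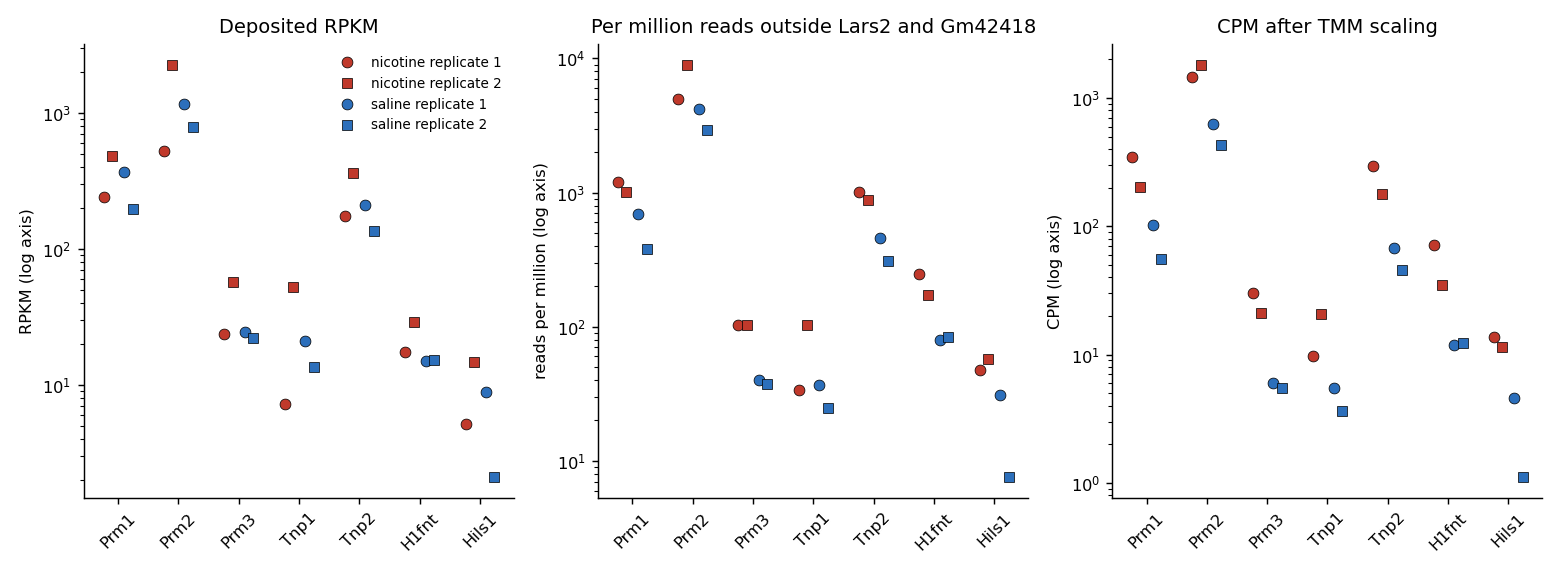
Each point is 1 library (red nicotine, blue saline) for each of the 7 genes, as deposited RPKM on the left, reads per 1000000 outside Lars2 and Gm42418 in the middle and CPM after TMM scaling on the right, all on log axes. The groups are apart for H1fnt alone on the left, for every gene but Tnp1 in the middle, and for all 7 on the right. Of all tested genes, 6.99%, 16.8% and 27.4% had both nicotine libraries above both saline libraries on these scales.

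By RPKM, Prm2 was above Prm1, Prm1 above Tnp2, Tnp2 above Prm3 and Hils1 lowest in all 4 libraries, while Tnp1 and H1fnt changed places between libraries. Averaged over the 2 nicotine libraries, the RPKM was 1396 ± 1230 for Prm2 and 363 ± 171 for Prm1, against 981 ± 266 and 283 ± 121 in saline (SD, n = 2 each). Tnp2 averaged 269 ± 134 in nicotine and 173 ± 51.3 in saline. The spread between libraries of a group is wide, but inside each library the RPKM of Tnp2 was below that of Prm1, at 0.719 and 0.75 of it in nicotine and 0.567 and 0.694 in saline libraries. Summed, the 7 genes held 2736 and 13308 reads in nicotine libraries and 5518 and 3520 in saline libraries. That was 0.763% and 1.13% of the reads outside the pair in nicotine and 0.551% and 0.378% in saline, with exact 95% intervals no wider than 0.735 to 0.792% in nicotine replicate 1. These intervals cover counting error only.

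How far the groups stood apart depended on what the reads were divided by. Deposited RPKM put both nicotine libraries above both saline libraries for 1 of 7 genes and below for 0, where 6.99% of all 8375 tested genes lay above and 64.2% below. Reads per 1000000 outside the pair put 6 of 7 above and 0 below, where 16.8% of all genes lay above and 54.7% below. CPM after TMM scaling, reads per 1000000 once libraries are set level on the bulk of their genes, put 7 of 7 above, where 27.4% of all genes lay above and 31.0% below. All 7 genes passed the filter on low counts.

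In edgeR's quasi-likelihood fit across all genes with TMM scaling, 3 of the 7 genes were called higher in nicotine sperm at a Benjamini-Hochberg adjusted p under 0.05, and 0 were called lower. Of all tested genes 8.27% were called higher and 0.931% lower. H1fnt had 71.4 and 35.0 CPM in nicotine and 11.9 and 12.3 CPM in saline libraries. It rose by 2.11 ± 0.52 on the log2 scale (SE, edgeR adjusted p = 0.0359), against -0.37 with scaling to the reads of the sperm list. Tnp2 had 295 and 179.5 CPM in nicotine and 68.3 and 45.5 CPM in saline libraries. It rose by 2.05 ± 0.53 (edgeR adjusted p = 0.0388), against -0.40 with the sperm list. Prm3, with 30.03 and 21.0 CPM in nicotine and 5.96 and 5.51 CPM in saline libraries, rose by 2.13 ± 0.49 (edgeR adjusted p = 0.0332), against -0.28 with the sperm list. The negative values did not pass the test.

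The other 4 genes did not pass. Prm1 had 350 and 204 CPM in nicotine and 103 and 56.1 CPM in saline libraries, a log2 fold change of 1.80 ± 0.55 (edgeR adjusted p = 0.0697). Prm2 had 1451 and 1823 CPM in nicotine and 622 and 430 CPM in saline libraries, a log2 fold change of 1.64 ± 0.58 (edgeR adjusted p = 0.111). Its groups did not overlap, and it had the lowest fold change and the highest adjusted p of the 7. Tnp1, at 9.74 and 20.9 CPM in nicotine and 5.51 and 3.62 CPM in saline libraries, had a log2 fold change of 1.80 ± 0.55 (edgeR adjusted p = 0.0678). Hils1, at 13.8 and 11.6 CPM in nicotine and 4.62 and 1.10 CPM in saline libraries, had one of 2.11 ± 0.67 (edgeR adjusted p = 0.0769). The fold changes of the called and the uncalled genes thus overlap, and no test of a difference between genes was made.

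The number of calls changed with the scaling, the library left out and the tool. With libraries scaled to the total of reads, edgeR called 0 of 7 genes (0% of all genes were called higher). An unadjusted p under 0.05 was found there for 0 of the 7 and for 889 of all 8375 tested genes. Scaled to reads outside the pair, edgeR again called 0 of 7 (0% of all genes). There 4 of 7, and 2523 of all 8375 tested genes, had an unadjusted p under 0.05. With TMM scaling but without saline replicate 1, 0 of 7 genes were called (5 at an unadjusted p under 0.05, 0.152% of all genes called higher), and without saline replicate 2 also 0 of 7 (2 unadjusted, 0% of all genes). The fold changes of the called genes moved little there while their standard errors grew: they were 2.17 ± 1.02 for Prm3, 2.35 ± 1.18 for Tnp2 and 2.07 ± 1.04 for H1fnt without saline replicate 1, and 2.05 ± 0.99, 1.76 ± 1.12 and 2.11 ± 1.02 for the same genes without saline replicate 2. Without nicotine replicate 1 edgeR called all 7 higher (10.8% of all genes), and without nicotine replicate 2 it called 6 (17.8% of all genes). DESeq2 on all 4 libraries called 5 of 7 (10.3% of all genes) and limma-voom 7 of 7 (9.15% of all genes).

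A change of scaling shifted the fold changes of the 7 genes and of the median gene in the same direction, by similar but unequal amounts. From TMM scaling to the total of reads, Prm1 went from 1.80 to 0.36 and Tnp1 from 1.80 to 0.80. The distance of the 7 genes from the median gene changed less. The median log2 fold change over all tested genes was -0.14 with TMM scaling, -0.77 with reads outside the pair, -1.28 with the total of reads and -2.44 with the sperm list. With TMM scaling the 7 genes lay 1.77 to 2.27 above that median, and with the total of reads 1.64 to 2.14. With TMM scaling 87.3% (Prm2) to 92.2% (Prm3) of tested genes had a lower fold change. With a library left out, which moved this distance further, the 7 genes lay 1.40 to 3.56 above the median and 76.3 to 98.5% of tested genes had a lower fold change. The fold change was negative for 7 of 7 genes with the sperm list (-0.69 to -0.22) and positive for 7 of 7 with the other scalings.

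**Figure D2:**
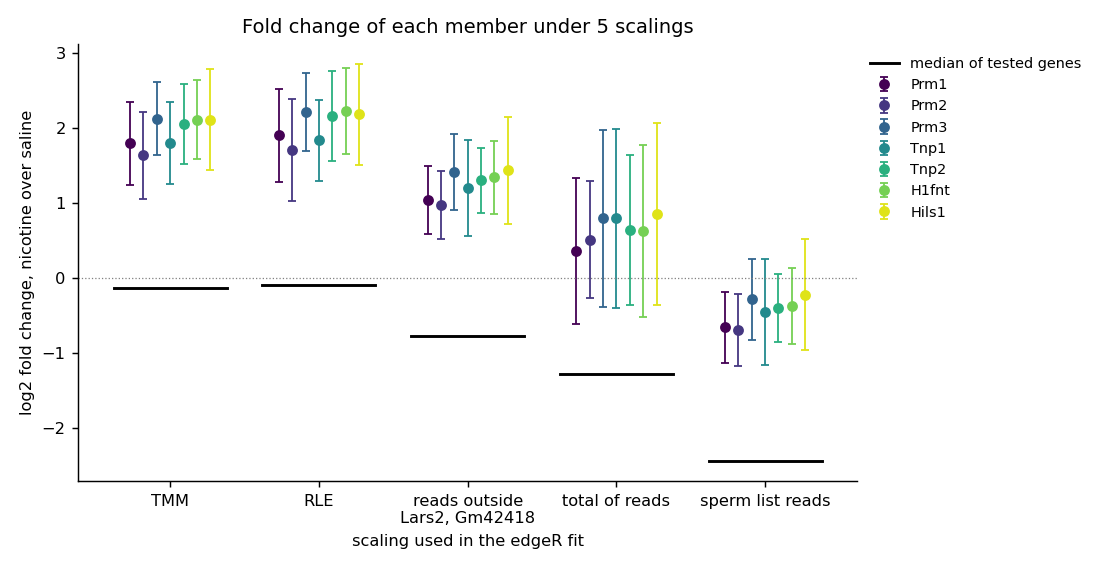
Points are the log2 fold changes (nicotine over saline) of the 7 genes in edgeR fits with 5 scalings, bars are 1 standard error, and the black lines are the median over all tested genes. The points and the black line shift in the same direction from one scaling to the next, by similar but unequal amounts. The 7 points turn negative under scaling to the sperm list.

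Ratios of reads inside a library do not depend on scaling, and 9 of them were compared. With 2 libraries against 2, an exact two-sided permutation test cannot give a p under 0.33, so values are set side by side with exact 95% counting intervals. Prm2 over Prm1 was 4.15 (3.73 to 4.62) and 8.92 (8.40 to 9.48) in the nicotine libraries, and 6.05 (5.58 to 6.57) and 7.67 (6.87 to 8.59) in the saline libraries. The nicotine libraries were the lowest and the highest of the 4, and their intervals lie far apart, so the spread inside the nicotine group exceeded counting error and any difference between groups. Corrected for gene length, as RPKM, the ratio was 2.18 and 4.68 in nicotine and 3.17 and 4.03 in saline libraries. The lengths in the files differ in kind, which affects the level of this ratio in all libraries alike. For Prm2 the length is the union of its exons (894 bases), and for Prm1 that of its longest transcript (469 bases, with an exon union of 571).

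Prm2 made up 65.4% and 79.4% of the reads of the 7 genes in nicotine libraries and 75.8% and 77.6% in saline libraries. Nicotine replicate 1 was thus the one library low in Prm2 for its other packaging genes. The share of Prm1 there was 15.8%, against 8.90% in nicotine replicate 2 and 12.5% and 10.1% in saline libraries, and that of Tnp2 was 13.3%, against 7.82% in nicotine replicate 2 and 8.32% and 8.21% in saline libraries. Prm2 over Tnp2 showed the same library standing apart, with 4.93 and 10.2 in nicotine and 9.11 and 9.45 in saline libraries.

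Tnp2 over Prm1, a transition protein message over a protamine message, was 0.842 (0.730 to 0.971) and 0.878 (0.808 to 0.956) in nicotine libraries and 0.664 (0.589 to 0.749) and 0.812 (0.693 to 0.951) in saline libraries. It was the only one of the 9 ratios with both nicotine libraries on one side of both saline libraries, by 0.23 on the log2 scale. The interval of saline replicate 2 covers the ratios of both nicotine libraries, so that this order was not detectable beyond counting error at this depth. Tnp2 over Tnp1 was 30.25 (17.1 to 59.1) and 8.60 (7.12 to 10.5) in nicotine libraries and 12.4 (8.87 to 17.8) and 12.6 (8.21 to 20.1) in saline libraries, the high value resting on the 12 reads of Tnp1 in nicotine replicate 1.

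The remaining ratios overlapped between groups. Prm3 over Prm1 was 0.0858 and 0.103 in nicotine and 0.0579 and 0.0983 in saline libraries. H1fnt over Prm1 was 0.204 and 0.171 in nicotine and 0.116 and 0.219 in saline libraries. Tnp1 over Prm1 was 0.0278 and 0.102 in nicotine libraries, the widest gap within a group for this ratio, and 0.0535 and 0.0646 in saline libraries. The ratios of Hils1 differed more between the saline than between the nicotine libraries. Over Prm1 it was 0.0394 and 0.0565 in nicotine and 0.0449 and 0.0197 in saline libraries, and over H1fnt, the other linker histone, 0.193 and 0.330 in nicotine and 0.3875 and 0.0897 in saline libraries.

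**Figure D3:**
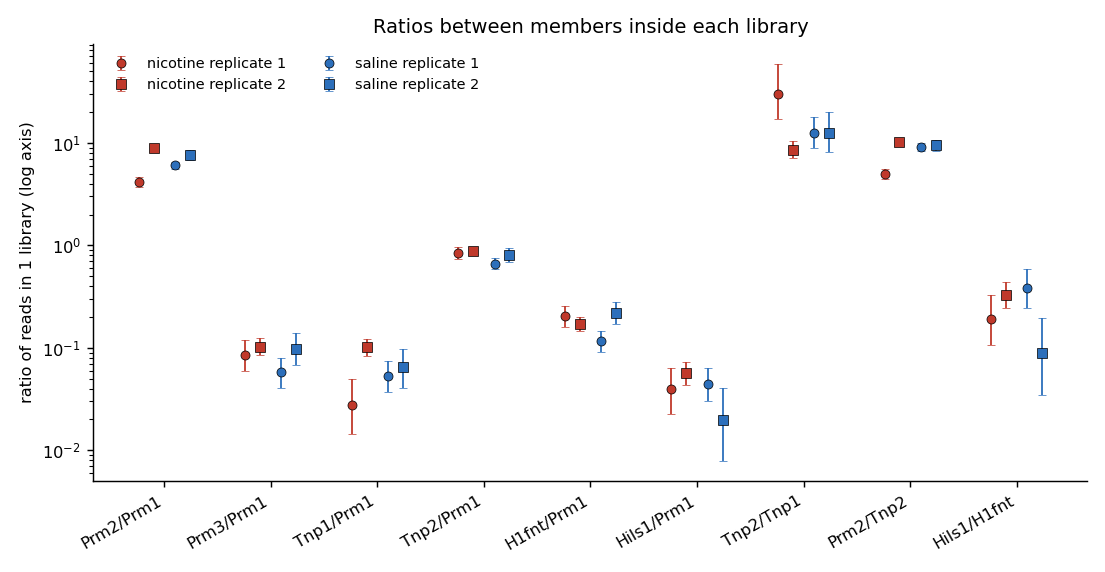
Ratios of reads between packaging genes inside each library are plotted on a log axis with exact 95% counting intervals, red for nicotine and blue for saline. Tnp2 over Prm1 is the one ratio whose nicotine points (0.842 and 0.878) both lie above the saline points (0.664 and 0.812), and Prm2 over Prm1 and Tnp2 over Tnp1 show nicotine replicates 1 and 2 at opposite ends.

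Set against other sperm messages, the 7 genes together were lower in the nicotine libraries. The sperm list is the 15 listed sperm markers, mostly genes of the tail, the mitochondrial sheath and sperm energy metabolism. It also holds Oaz3, Spata18, Spata3, Tcp11 and Crisp2. For every 100 reads of this list, the 7 genes together had 13.9 and 23.5 reads in nicotine and 33.7 and 24.9 reads in saline libraries. Both nicotine libraries lay below both saline libraries, with a difference of -0.68 on the log2 scale. This order was also found when any one of the 15 genes was left out of the sum. The margin was narrow without Smcp, a mitochondrial capsule gene (32.5 in nicotine replicate 2 against 32.9 in saline replicate 2). Smcp and Odf1, an outer dense fibre gene, had the most reads of the list in every library, and the order depends on them. When only Odf1 and Smcp were kept, the difference was -0.95 on the log2 scale. Set against all reads outside the pair, the same sum was instead 1.03 higher in nicotine on the log2 scale.

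Gene by gene, 5 of 7 lay below without overlap and 0 above, but so did 89.2% of all tested genes on this measure, while 1.41% lay above. Prm1 had 2.19 and 2.09 reads per 100 sperm list reads in nicotine libraries and 4.21 and 2.52 in saline libraries. Prm2 had 9.07 and 18.7 in nicotine and 25.5 and 19.4 in saline libraries, and its higher nicotine library came close to the lower saline library. Tnp2 had 1.84 and 1.84 in nicotine and 2.80 and 2.05 in saline libraries. Prm3 (0.188 and 0.215 against 0.244 and 0.248) and H1fnt (0.446 and 0.358 against 0.488 and 0.553) also lay below without overlap. Tnp1 (0.0609 and 0.214 against 0.226 and 0.163) and Hils1 (0.0862 and 0.118 against 0.189 and 0.0496) overlapped. In the edgeR fit scaled to the sperm list 0 of 7 genes were called lower (0 at an unadjusted p under 0.05), where 75.1% of all genes were called lower.

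**Figure D4:**
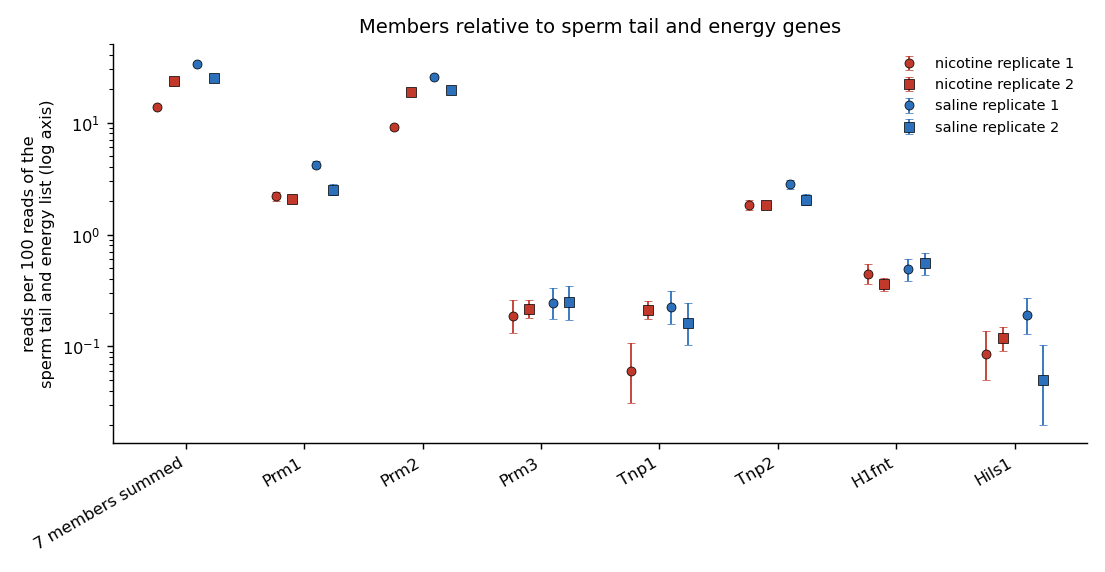
Reads of the 7 genes, summed and singly, are shown per 100 reads of the sperm list (named sperm tail and energy list on the axis). Each library is a point on a log axis with an exact 95% counting interval, red for nicotine and blue for saline. The summed points of nicotine (13.9 and 23.5) lie below those of saline (33.7 and 24.9), and only Tnp1 and Hils1 overlap. Of all tested genes, 89.2% had both nicotine libraries below both saline libraries on this measure, and 1.41% had both above.

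Of 45 other genes that act in the exchange of histones for protamines, its control or the storage of protamine messages, 38 were listed and tested. In the fit with TMM scaling 8 were called higher and 0 lower, where 8.27% of all tested genes were called higher and 0.931% lower. The median log2 fold change of the 38 was 0.94, against -0.14 over all genes. The called genes include regulators of spermatid transcription: Crem, whose product acts through the element described above, had 68 and 151 reads in nicotine and 35 and 32 reads in saline libraries. It rose by 2.95 ± 0.55 (edgeR adjusted p = 0.0329). Rfx2, a transcription factor of spermiogenesis, had 120 and 343 reads in nicotine and 64 and 73 in saline libraries. It rose by 2.88 ± 0.51. Among readers and remodellers of chromatin, Brdt, the testis bromodomain protein that binds acetylated histones, rose by 2.65 ± 0.63, Chd5, a chromatin remodeller, by 2.55 ± 0.60 and Phf7, a ubiquitin ligase for histones, by 2.10 ± 0.48 (-0.22 with the sperm list).

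Tssk6, a spermatid kinase needed for this exchange in mice and the one of the 38 with the highest mean CPM (not corrected for length), had 453 and 936 reads in nicotine and 332 and 275 in saline libraries. It rose by 2.51 ± 0.57 with TMM scaling and was at -0.0096 with the sperm list. Ybx2, a protein that binds and stores spermatid messages, had 90 and 517 reads in nicotine and 145 and 108 in saline libraries. It rose by 2.07 ± 0.48 with TMM scaling and was at -0.26 with the sperm list. Tdrd6, of the chromatoid body, rose by 2.56 ± 0.50. The adjusted p of the 8 lay between 0.0329 and 0.0339 in edgeR. Pabpc1, the general poly(A)-binding protein which follows Tssk6 in mean CPM, had a log2 fold change of 0.46 ± 0.47 (edgeR adjusted p = 0.604). The lowest values of the 38 were those of the somatic linker histone genes Hist1h1c (-0.82) and H1f0 (-0.58). As with the 7 packaging genes, 0 of the 38 were called higher by edgeR with the total of reads (0 at an unadjusted p under 0.05). With reads outside the pair 0 were called, with 10 at an unadjusted p under 0.05, against 2523 of all 8375 tested genes. With either saline replicate 1 or saline replicate 2 left out, no gene of the 38 was called. DESeq2 called 9 higher (10.3% of all genes) and limma-voom 10 (9.15% of all genes).

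With scaling to the sperm list 20 of the 38 were called lower and 0 higher, where 75.1% of all genes were called lower. Under that scaling Crem was at 0.47, Rfx2 at 0.42, Brdt at 0.27, Tdrd6 at 0.25 and Chd5 at 0.037 on the log2 scale. With Tssk6, Phf7 and Ybx2 below 0, none of the 8 passed the threshold in either direction there.

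**Figure D5:**
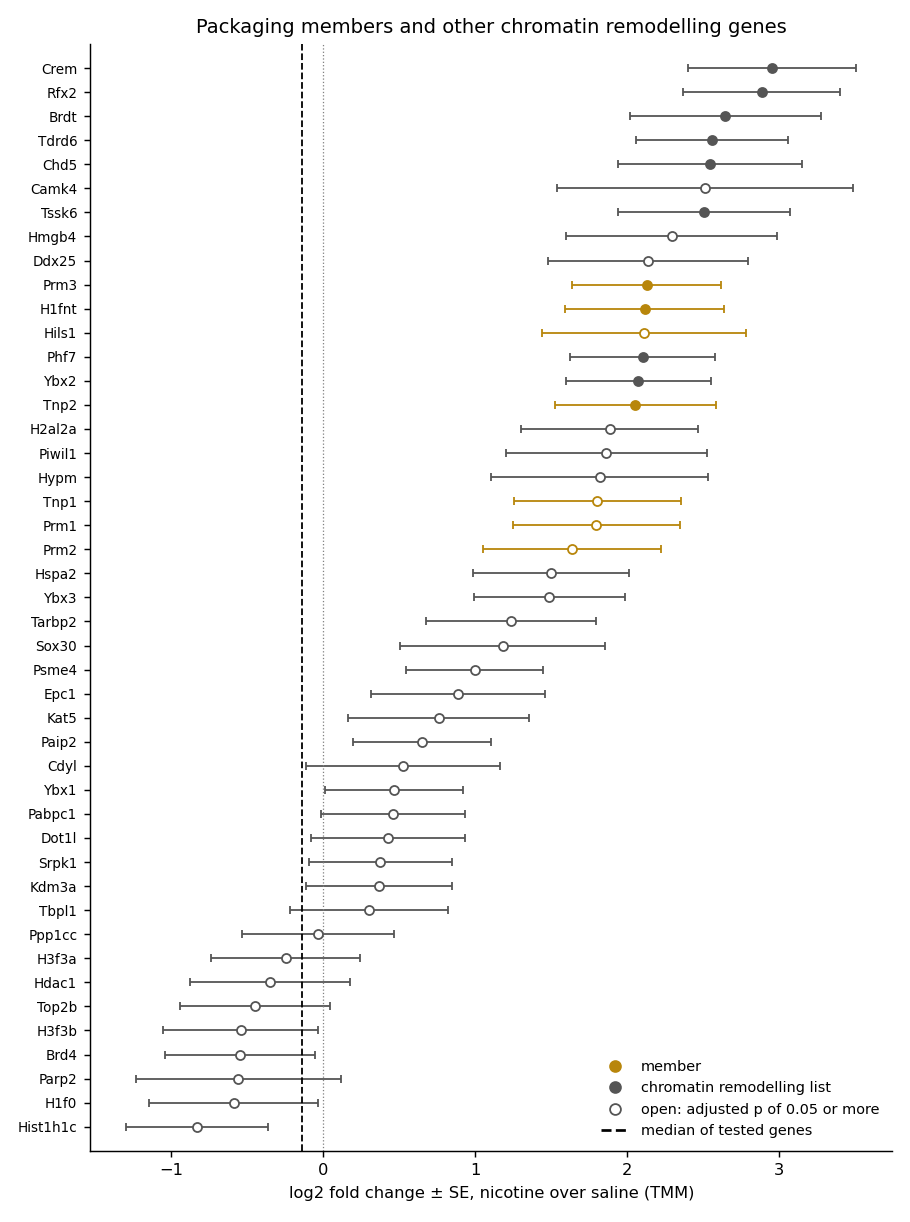
Log2 fold changes (nicotine over saline) with 1 standard error from the edgeR fit with TMM scaling are shown for the 7 packaging genes in gold and the 38 other genes in grey, filled where the adjusted p was under 0.05. The packaging genes lie between 1.64 and 2.13, below Crem (2.95) and above the median of all tested genes (-0.14, dashed), and they turn negative when scaled to the sperm list.

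Across the 4 libraries, the genes whose pattern was most like that of the packaging genes were Irgc1, Btbd7, Slfnl1, Lrrc28 and Gm5617. Likeness was the mean absolute difference in log2 CPM, each gene centred on its own mean, from the median pattern of Prm1, Prm2, Tnp2 and H1fnt, among 1356 genes with a mean of 100 or more reads. Irgc1 was nearest, at 0.0754, and the other 4 lay between 0.0860 and 0.0897. For comparison, the 4 packaging genes that set the pattern lay at 0.0763 (Tnp2), 0.107 (Prm1), 0.219 (H1fnt) and 0.316 (Prm2). The TMM-scaled level of Prm2 was higher in nicotine replicate 2 than in nicotine replicate 1, whereas Prm1, Tnp2 and H1fnt had the opposite order. Next to the chromosome 16 cluster, Clec16a was the nearest listed gene beyond it, with 8 and 55 reads in nicotine libraries and 35 and 51 in saline libraries.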

How the data were processed

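RNA was sequenced from cauda sperm of 2 nicotine and 2 saline libraries. For each library the authors deposited a table of read counts per gene with a gene length and RPKM. CASAVA, TopHat and build mm8 are named without role or version, per the submitters' processing notes. No source used here names the counting program, the annotation or the strand setting. The authors' count column was treated as estimated counts, since the last line, with no gene, holds a scale factor and not a count. That line was left out, the counts were whole on every gene line, and rounding changed nothing. The RPKM values deposited by the authors equalled reads per length and library total. Symbols matched for 8688 of 8699 identifiers. Depth was 3798794 and 5216745 reads in nicotine and 3999449 and 3856022 in saline libraries.

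Counts were tested with edgeR 4.0.16 in R 4.3.3 (quasi-likelihood test, TMM scaling, group as the one term, filterByExpr with a minimum count of 10, library sizes recomputed after the filter), which kept 8375 genes and left out 324. A gene was called at a Benjamini-Hochberg adjusted p under 0.05 over all tested genes. TMM factors were 0.325 and 1.11 in nicotine and 1.68 and 1.65 in saline libraries, and CPM are reads per 1000000 after that scaling. A standard error is the log2 fold change over the square root of its F statistic. Shares and ratios have exact Clopper-Pearson 95% intervals. Alternatives were other scalings (RLE, total of reads, reads outside Lars2 and Gm42418, reads of the sperm list), no filter, DESeq2 1.42.0, limma-voom 3.58.1, a replicate block and each library left out. The fit was tested on simulated data. The 7 genes and the gene lists were chosen with earlier results of these data known. Text names all 7 genes, the called genes of the chromatin list (up to 8, by size of fold change) with its 4 most abundant, the 5 genes of most similar pattern, and Lars2 and Gm42418. The somatic linker histones and single cell type markers were named after their values were seen.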

Additional observations from a re-analysis of the deposited data

How the results depend on the processing

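Of the 7 packaging genes, 3 were called higher with TMM and with RLE scaling and with no filter, 5 by DESeq2, 7 by limma-voom, and 0 with the total of reads, reads outside Lars2 and Gm42418 or the sperm list. For the 38 chromatin genes (8 higher, 0 lower) these 3 scalings gave 0 higher, and the sperm list gave 20 lower. For all genes (693 higher, 78 lower) they gave 0, 0 and 2 higher and 9, 0 and 6290 lower, and limma-voom gave 46 lower. With a library left out, calls ranged from 0 to 7 of the 7 genes, 0 to 17 of the 38, and 0 to 1515 higher and 9 to 824 lower of all genes. A lone library left in a group is assumed to vary like the other group. The replicate numbers do not show a pairing (correlation 0.17 between groups, 2 pairs). A fit with them as a block called 6 of 7, 14 of 38, and 1078 higher and 279 lower of all genes. Fold changes reversed with the sperm list: Prm1 -0.66, Prm2 -0.69, Prm3 -0.28, Tnp1 -0.46, Tnp2 -0.40, H1fnt -0.37 and Hils1 -0.22. On the log2 scale (nicotine minus saline) ratios ran, with each library left out, from -0.72 to 0.39 for Prm2 over Prm1, -0.065 to 0.70 for Prm3 over Prm1, -1.08 to 0.80 for Tnp1 over Prm1, -0.23 to 0.69 for H1fnt over Prm1, -0.54 to 1.28 for Tnp2 over Tnp1, -0.91 to 0.13 for Prm2 over Tnp2 and -0.62 to 1.49 for Hils1 over H1fnt. Tnp2 over Prm1 (0.08 to 0.37) and Hils1 over Prm1 (0.07 to 1.26) kept their sign. Reads over the sperm list ran from -1.66 to 0.16 for Tnp1 and from -0.90 to 1.03 for Hils1 (0.06 with all libraries, -0.062 from RPKM, -0.21 over Odf1 and Smcp), while the sum of the 7 stayed between -1.06 and -0.30. Divided by all reads outside the pair, the sum was 1.03, Prm1 1.10, Prm2 0.94, Prm3 1.42, Tnp1 0.96, Tnp2 1.33 and H1fnt 1.33. The cause of these reversals was not tested beyond the change of denominator. There were 2 libraries a group and 358477 reads outside the pair in nicotine replicate 1. Hils1, Tnp1 and Prm3 had 7 to 40 reads in every library but nicotine replicate 2, where they had 67, 121 and 122. These numbers limit what can be seen.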
